A study of Mus musculus with 12 samples.

Results

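The 10 genes of insulin-like growth factor (IGF) binding and signalling were followed through 12 RNA sequencing libraries of mouse tongue organoids: the binding proteins Igfbp2, Igfbp3, Igfbp4, Igfbp5, Igfbp6 and Igfbp7, the receptors Igf1r and Igf2r, and the adaptors Irs1 and Irs2. They were taken by symbol, 10 of the 55367 genes in the count table, and all 10 were among the 17076 genes expressed enough to test. The family was picked because Igfbp5 was known to be higher in the knock-out libraries, so its knock-out and wild type levels are given as a description, without a test. Igfbp6 passed the filter on low counts only through the CVP wild type libraries, where it is highest, so it too is described without a test. The other 8 came in by family name and were tested.

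Organoids are epithelial tissues grown in 3 dimensions, here from the mouse posterior tongue in a circumvallate papilla (CVP) line and a foliate papilla (FoP) line. The series asks what loss of Foxe1, a forkhead transcription factor, does to cell fate in these cultures. Each line gave 6 libraries of poly(A) RNA: wild type in duplicate, and 2 clones labelled Foxe1 knock-out in duplicate, numbered 2.9 and 2.10 in CVP and 2.4 and 2.5 in FoP. The labels call none of the wild type libraries a clone, so genotype and clonal derivation cannot be told apart, and the labels give no strain, age, allele or agent beyond genetic modification. The wild type duplicates of a line were taken to be 1 culture, but the main fit counts each library as an independent sample. Its p-values measure only the spread between these samples. Between duplicates that spread may be technical, and in the knock-out groups it also includes differences between the 2 clones.

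The libraries held 59.3 to 73.6 M counts and 21421 to 22602 detected genes. Foxe1 itself held 487 to 1527 counts in the knock-out libraries and 989 to 1144 in wild type, so its transcript does not separate the labelled groups. Which part of the gene was altered is unknown here, so the count does not check the labels. All 7 epithelial markers were present, with summed levels of 9939 to 15232 counts per M counts (CPM, on library sizes scaled by TMM). The 8 fibroblast markers summed to 4.01 to 10.01 CPM with Lum at 0 throughout, and the 5 endothelial markers to 1.497 to 3.64 CPM. The 5 immune genes summed to 10.2 to 108 CPM, although Ptprc, the pan-leukocyte marker among them, was at 0 in every library.

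In this pathway the ligands Igf1 and Igf2 bind Igf1r, a receptor tyrosine kinase, which phosphorylates the adaptors Irs1 and Irs2. These recruit phosphoinositide 3-kinase, whose product activates Akt, and Akt keeps FoxO transcription factors out of the nucleus and raises mTOR activity. Secreted binding proteins hold the ligands away from the receptor or carry them to it, proteases release the ligands again, and Igf2r takes Igf2 into the cell for degradation. In epithelia the pathway is best known for supporting growth and survival.

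The 3 abundant binding proteins with the largest differences between the groups are shown first by the 250 bases before their transcription start, from RefSeq on GRCm38.p6, 5′ to 3′ on the gene's strand. Igfbp5 (chr1:72874866-72875115, minus strand) and Igfbp2 (chr1:72824230-72824479, plus strand) lie side by side on chromosome 1, and Igfbp4 (chr11:99040994-99041243, plus strand) on chromosome 11. Capitals mark GGGCGG, the GC box, and TATAAA, the TATA box, searched on both strands.
Igfbp5: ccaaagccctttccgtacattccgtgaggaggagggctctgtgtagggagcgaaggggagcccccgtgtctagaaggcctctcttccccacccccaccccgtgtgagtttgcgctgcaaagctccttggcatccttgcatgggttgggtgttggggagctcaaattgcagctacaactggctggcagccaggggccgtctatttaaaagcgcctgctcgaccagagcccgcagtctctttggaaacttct
Igfbp2: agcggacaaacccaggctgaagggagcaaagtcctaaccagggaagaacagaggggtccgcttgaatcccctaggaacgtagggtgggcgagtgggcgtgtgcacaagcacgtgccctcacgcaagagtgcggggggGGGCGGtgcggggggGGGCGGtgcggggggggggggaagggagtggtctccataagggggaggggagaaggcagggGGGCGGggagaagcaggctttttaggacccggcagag
Igfbp4: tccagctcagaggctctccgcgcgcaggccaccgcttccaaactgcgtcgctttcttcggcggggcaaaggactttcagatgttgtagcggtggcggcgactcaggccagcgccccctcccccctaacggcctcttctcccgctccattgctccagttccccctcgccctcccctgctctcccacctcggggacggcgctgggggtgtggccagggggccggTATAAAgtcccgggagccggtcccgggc
A forkhead core, TGTTT, was searched as well, and these motifs were chosen after the windows were seen. None of the 3 is in the Igfbp5 window. The Igfbp2 window shown holds 3 GC boxes, and the Igfbp4 window holds a TATA box at 28 to 23 bases before the start. The window before a second Igfbp2 start, not shown, holds the forkhead core at 49 to 45 and at 16 to 12 bases before that start. Of 32851 windows of the same length, 46.4% hold the forkhead core, 32.7% the GC box and 12.4% the TATA box. Over the 11 windows of the 10 genes (Igfbp2 has a second start), 4 hold the forkhead core, 6 the GC box and 2 the TATA box. GC content was 58.8% in the Igfbp5 window, 67.2% in Igfbp2 and 69.2% in Igfbp4, against a median of 52.4% over all windows. A match is a description and not evidence of binding.

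In GENCODE M21 on GRCm38, Igfbp2 spans chr1:72824503-72852474 on the plus strand and Igfbp5 chr1:72857932-72874884 on the minus strand. The genes end 5457 bases apart, tail to tail, with 0 annotated genes between them. Igfbp4 spans chr11:99041244-99054392 (plus strand) and Igfbp3 chr11:7206086-7213923 (minus strand), the latter 3539 bases from Igfbp1. Igfbp6 lies at chr15:102144362-102149511 (plus), Igfbp7 at chr5:77349240-77408041 (minus), Igf1r at chr7:67952827-68233668 (plus) and Igf2r at chr17:12682406-12769664 (minus). Irs1 is at chr1:82233101-82291416 (minus) and Irs2 at chr8:10984681-11008458 (minus). Counts are per whole gene, so no exon or isoform is told apart.

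Ligand transcripts were scarce in every culture. Igf1 held 14 and 20 counts in CVP wild type, 40 to 54 in CVP knock-out, 2 and 2 in FoP wild type and 0 to 16 in FoP knock-out. Igf2 held 0 to 35 counts across the 12 libraries. Its highest values, 35 and 16, were both in FoP clone 2.4. Ins1 and Ins2, the insulin genes, had 0 counts in every library, which allows up to 3 counts, or 0.0408 to 0.0506 CPM of the unscaled total, per library. No ligand passed the test in either line: Igf1 differed by 1.52 ± 0.70 on the log2 scale in CVP (standard error, SE, adjusted p = 0.0925 with edgeR) and by 1.83 in FoP (adjusted p = 0.179), fitted values that depend on the prior count at such low counts. The CVP knock-out libraries were all above both CVP wild type libraries for Igf1, whose level there was 0.695 ± 0.0815 CPM (SD, n = 4) against 0.241 ± 0.0513 CPM (SD, n = 2).

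Igfbp5 encodes a secreted binding protein that also binds extracellular matrix. In CVP wild type it was at 103 and 101 CPM, against 536 and 383 CPM in clone 2.9 and 652 and 412 CPM in clone 2.10. In FoP wild type it was at 27.5 and 34.2 CPM, against 419 and 428 CPM in clone 2.4 and 729 and 801 CPM in clone 2.5. Every knock-out library was above every wild type library of either line. The mean level was 4.88-fold higher in CVP knock-out and 19.3-fold higher in FoP knock-out, with fitted log2 fold changes of 2.29 and 4.27. These are the values that chose the family, so no test is given. By clone, the ratio to the line's wild type was 4.52 for 2.9, 5.23 for 2.10, 13.7 for 2.4 and 24.8 for 2.5.

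As a ratio of means, the lines stood further apart in their wild type level of Igfbp5 than in their knock-out level. CVP wild type was 3.30-fold above FoP wild type, whereas the knock-out means were 594 ± 199 CPM in FoP and 496 ± 123 CPM in CVP (SD, n = 4 each), a ratio of 1.20. The order of the cultures was clone 2.5, clone 2.10, clone 2.9, clone 2.4, CVP wild type and FoP wild type. The libraries of clones 2.10, 2.9 and 2.4 overlapped with their neighbours in this order, and the other steps did not overlap. These are bulk libraries, so more cells of a type that makes Igfbp5 and more Igfbp5 RNA per cell cannot be told apart.

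Marker sums of other cell types are given beside these levels. The 5 myoepithelial markers summed to 53.5 to 69.5 CPM in CVP wild type against 61.7 to 250 CPM with knock-out, and to 36.1 to 58.5 against 52.4 to 162 CPM in FoP, so the genotypes overlapped in both lines. The 7 epithelial markers summed to 9939 to 10415 CPM in CVP wild type, below the 12818 to 15232 CPM of knock-out, whereas in FoP the wild type range, 11476 to 11549 CPM, lay inside the knock-out range of 11090 to 13929 CPM. The 5 immune genes summed to 103 to 108 CPM in CVP wild type against 10.2 to 18.1 CPM in knock-out, and to 65.4 to 69.3 against 38.0 to 66.7 CPM in FoP, with Ptprc at 0. As sums, the genotypes were thus apart in CVP for the epithelial and immune markers and overlapped in FoP for both. Single markers could differ where sums overlapped, and the epithelial list was split although its CVP sums were apart. Of its 7 genes, all tested, 2 were called higher in CVP knock-out (Krt14 and Krt5) and 3 lower (Epcam, Krt18 and Trp63). In FoP 1 was called higher (Trp63) and 1 lower (Krt18). Of the 3 immune genes tested, 3 were called lower in CVP and 2 in FoP, with 0 higher. Lyz2 is 1 of them, and it was at 0 in all knock-out libraries, so only wild type let it pass the filter. Of the 5 myoepithelial genes, Mylk alone was called, higher in both lines (2.69 and 3.22 on the log2 scale, edgeR). Over all tested genes, 46.4% were called in CVP and 28.8% in FoP. The part of these markers in the results on Igfbp5 and the other members was not tested. The 8 fibroblast markers, of a cell type known to express Igfbp5, summed to 4.01 to 5.93 CPM in the wild type libraries of both lines and to 4.68 to 10.01 CPM in the knock-out libraries, with Lum at 0. Of the 6 tested, 2 were called higher and 1 lower in CVP and 1 higher and 1 lower in FoP. These counts stand beside 46.4% of all tested genes called in CVP and 28.8% in FoP, and nothing is read from them.

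**Figure D1:**
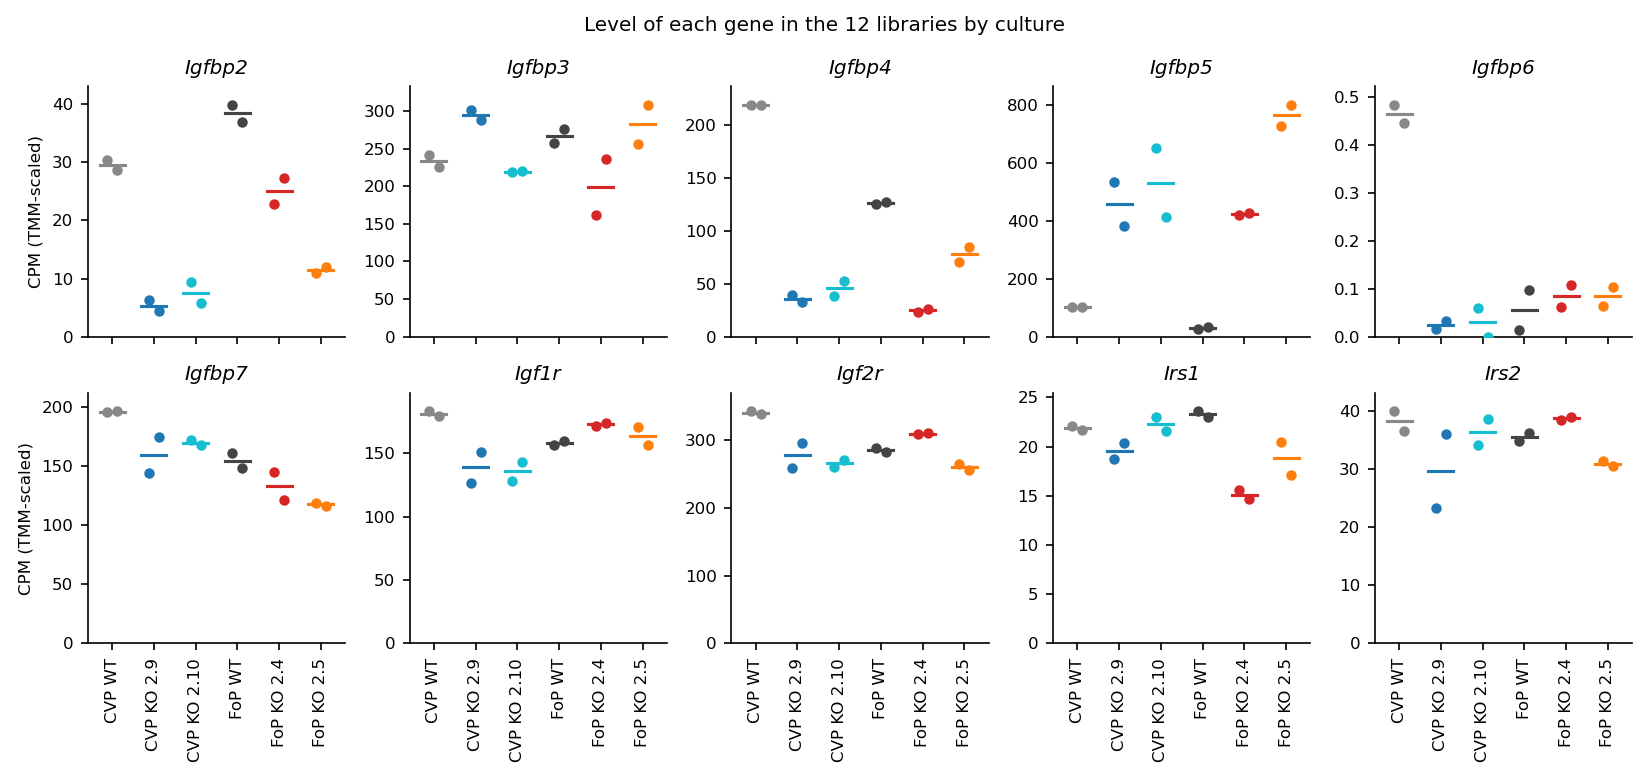
Level of each of the 10 genes in the 12 libraries (vertical axes: CPM on TMM-scaled library sizes, each panel from 0), grouped by the 6 cultures on the horizontal axis, with 1 point per library and a line at the culture mean. Igfbp5 lies at 383 to 801 CPM in the 8 knock-out libraries and at 27.5 to 103 CPM in the 4 wild type libraries, and Igfbp2 and Igfbp4 lie lower in knock-out within each line.

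Among the 8 tested members in CVP, 5 of 8 were called lower in knock-out and 0 higher at an adjusted p below 0.05, where 46.4% of all tested genes were called and 22.9% were called lower (23.5% higher). Their median log2 fold change was -0.29, beside 0.03 over all tested genes. In FoP, 2 of 8 were called lower and 0 higher, where 28.8% of tested genes were called and 15.3% were called lower (13.5% higher). The median there was -0.22, beside 0.01 over all tested genes. Counted by libraries, 5 of 8 lay lower in CVP knock-out without overlap and 0 higher, where 61.7% of tested genes did not overlap (31.7% higher, 30.0% lower). In FoP 4 of 8 lay lower and 0 higher, where 49.7% did not overlap (23.9% higher, 25.8% lower). The family was chosen on these libraries, so nothing is read from these counts.

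Igfbp2, the chromosomal neighbour of Igfbp5, was lower in knock-out. CVP wild type held 30.3 and 28.7 CPM, against 6.28 and 4.39 CPM in clone 2.9 and 9.38 and 5.77 CPM in clone 2.10. The 4 CVP knock-out libraries were all below wild type, and Igfbp2 fell by 2.19 ± 0.38 on the log2 scale (SE, adjusted p = 0.00143, edgeR), from 29.5 ± 1.17 (SD, n = 2) to 6.45 ± 2.11 CPM (SD, n = 4). In FoP, wild type held 40.0 and 37.0 CPM, against 22.9 and 27.2 CPM in clone 2.4 and 11.01 and 11.96 CPM in clone 2.5. The FoP knock-out libraries were also all below wild type, but the log2 difference of -1.07 ± 0.38 (SE) did not pass the test (adjusted p = 0.0638, edgeR). It passed without clone 2.4 duplicate 2 (adjusted p = 0.0248) and with DESeq2 (adjusted p = 0.0324), and adjusted p-values ran from 0.00291 to 0.33 over all alternatives. In CVP the call was lost when the duplicates of each culture were summed (adjusted p = 0.0717, the highest over the alternatives run).

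Igfbp4 encodes a binding protein that mostly holds ligands away from the receptor until the protease Pappa cleaves it. CVP wild type held 219.8 and 219.6 CPM, against 39.2 and 33.0 CPM in clone 2.9 and 38.5 and 53.0 CPM in clone 2.10. All 4 knock-out libraries were below wild type, and Igfbp4 fell by 2.42 ± 0.48 on the log2 scale (SE, adjusted p = 0.00335, edgeR), a 5.36-fold lower mean. In FoP, wild type held 125 and 128 CPM, against 23.5 and 26.3 CPM in clone 2.4 and 70.6 and 85.2 CPM in clone 2.5. All 4 were below wild type, but the difference of -1.30 ± 0.48 (SE) did not pass the test (adjusted p = 0.0786, edgeR), and the clones stood apart from each other. It passed without clone 2.5 duplicate 2 (adjusted p = 0.0300) and with DESeq2 (adjusted p = 0.0275), and adjusted p-values ran from 0.00016 to 0.399 over all alternatives. With duplicates summed per culture the CVP call was lost (adjusted p = 0.122, the highest over the alternatives run). Pappa itself held 5.29 to 14.4 CPM and was not called in either line.

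**Figure D2:**
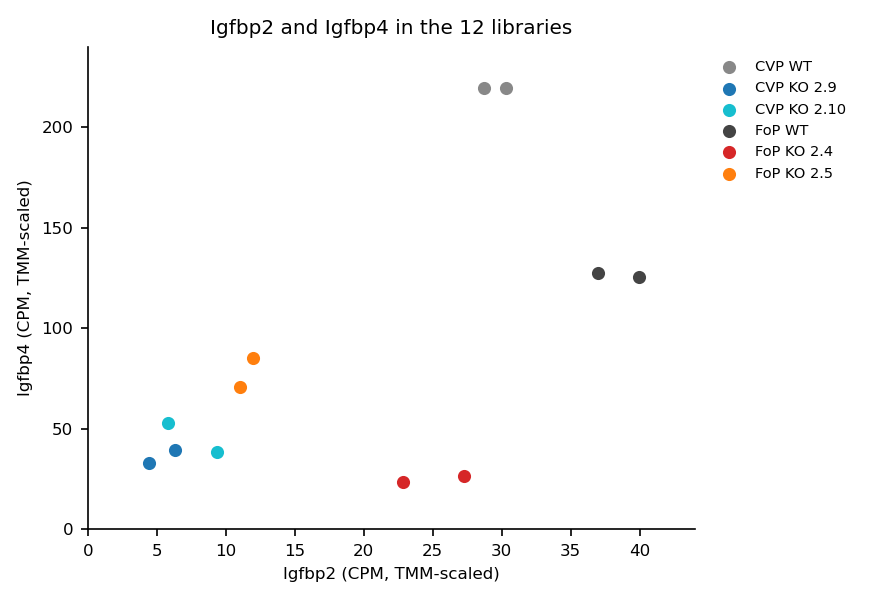
Igfbp4 (vertical axis, CPM) against Igfbp2 (horizontal axis, CPM) in the 12 libraries, 1 point per library, coloured by culture. The CVP knock-out clones share the lower left, while FoP clone 2.4 keeps more Igfbp2 (25.1 CPM) and less Igfbp4 (24.9 CPM) than FoP clone 2.5 (11.5 and 77.9 CPM, means of 2 libraries).

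Igfbp6, which binds Igf2 with preference over Igf1, was near the floor outside CVP wild type. Its counts were 33 and 32 in CVP wild type, 1 and 2 in clone 2.9, 4 and 0 in clone 2.10, 1 and 6 in FoP wild type, 4 and 7 in clone 2.4 and 4 and 6 in clone 2.5. The CVP wild type libraries alone stood out. Over the arms, 65 wild type counts against 7 in CVP knock-out gave a ratio of levels of 17.1 (95% interval 7.85 to 44.3), and 7 against 21 in FoP gave 0.640 (0.230 to 1.56), intervals that cover counting error only. No test is given, since the high group is also what let the gene pass the filter.

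Igfbp3, the main carrier of the ligands in blood, did not pass the test in either line. Its level was 226 and 242 CPM in CVP wild type and 219 to 301 CPM in CVP knock-out, and 257 and 276 CPM in FoP wild type against 161 to 309 CPM in FoP knock-out. The groups overlapped in both lines, and the differences were 0.14 ± 0.23 in CVP (SE, adjusted p = 0.659) and -0.15 ± 0.23 in FoP (adjusted p = 0.688, edgeR). The clone means of each line lay on opposite sides of the wild type mean: 2.9 averaged 295 and 2.10 219 CPM, and 2.4 averaged 199 and 2.5 283 CPM.

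Igfbp7, a low-affinity relative of the other binding proteins, was modestly lower in both lines. It was at 195 and 196 CPM in CVP wild type, against 144 to 174 CPM in CVP knock-out, and at 161 and 148 CPM in FoP wild type, against 116 to 145 CPM in FoP knock-out. The groups did not overlap in either line. Igfbp7 fell by 0.25 ± 0.09 (SE, adjusted p = 0.0389) in CVP and by 0.30 ± 0.09 (adjusted p = 0.0276, edgeR) in FoP on the log2 scale. The CVP call was lost without wild type duplicate 1 (adjusted p = 0.145), wild type duplicate 2 (0.144), clone 2.9 duplicate 1 (0.0771) or clone 2.10 duplicate 2 (0.0556). The FoP call was lost without either wild type duplicate, clone 2.4 duplicate 2 or either duplicate of clone 2.5, with adjusted p-values up to 0.217. Both calls were lost with duplicates summed per culture (log2 fold changes -0.25 and -0.30). Voom with culture as block also lost both (adjusted p = 0.0815 in CVP and 0.0695 in FoP), as did edgeR without a filter (0.065 and 0.0517). Leaving out clone 2.9 (0.0948) or clone 2.10 (0.0562) lost the CVP call, and leaving out clone 2.5 (0.154) the FoP call. Polr2b, on the opposite strand of the same locus, held 6448 to 8734 counts, and because nothing states whether counting used strand, reads of overlapping genes cannot be told apart.

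**Figure D3:**
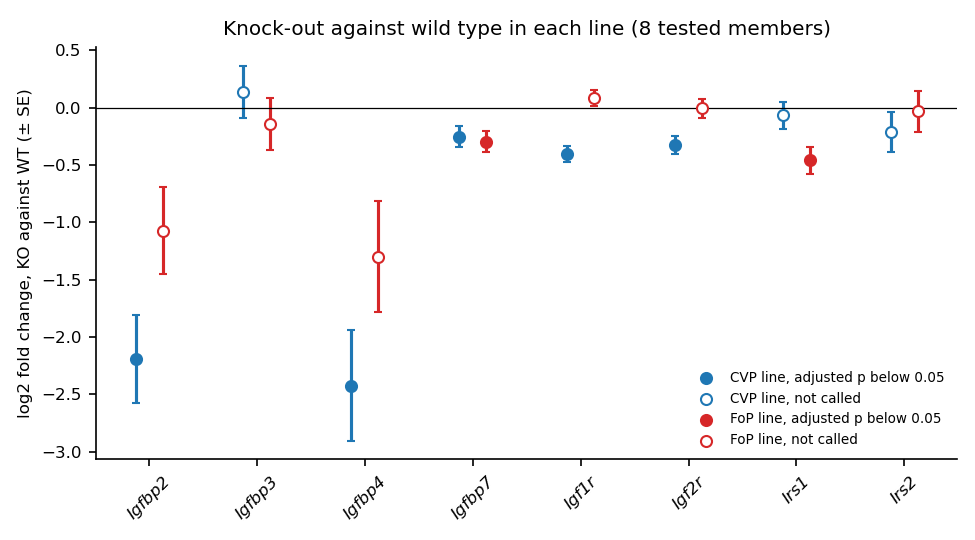
Log2 fold change of knock-out against wild type (vertical axis, points with SE bars) for the 8 tested members, in CVP and FoP; filled points passed an adjusted p of 0.05 with edgeR and open points did not. In CVP 5 filled points lie below 0, and in FoP the filled points are Igfbp7 and Irs1.

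Compared per kb of exon, the binding proteins changed places. Igfbp7 had the highest level of the 10 genes in all 4 arms, 104 to 162 CPM per kb as arm means. In both libraries of FoP clone 2.5, however, Igfbp5 was above Igfbp7 on this scale. Igfbp5 had rank 5 in CVP wild type (16.9 CPM per kb) and rank 8 in FoP wild type (5.14), and rank 2 in both knock-out arms (82.5 ± 20.5 and 99.0 ± 33.2, SD, n = 4). Igfbp3 had rank 2 in wild type and rank 3 in knock-out, at 74.6 to 85.1 CPM per kb. Irs1, at 1.86 to 2.55 CPM per kb, and Igfbp6 were lowest throughout.

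The summed level of the 6 binding proteins overlapped between genotypes in each line, while its make-up differed. The sum was 317 to 323 CPM per kb in CVP wild type and 293 to 335 in CVP knock-out, and 265 to 269 in FoP wild type and 259 to 354 in FoP knock-out. The FoP clones differed, with 259 and 268 in clone 2.4 and 323 and 354, both above wild type, in clone 2.5. Igfbp5 made up 5.29 to 5.30% of the sum in CVP wild type and 20.6 to 32.4% in knock-out, and 1.70 to 2.15% in FoP wild type and 26.6 to 37.7% in knock-out. Igfbp4 made up 15.4 to 15.7% in CVP wild type and 2.42 to 4.10% in knock-out, and 10.5 to 10.9% against 2.06 to 5.45% in FoP. Igfbp2 made up 4.90 to 5.09% in CVP wild type and 0.767 to 1.52% in knock-out, and 7.56 to 8.03% against 1.83 to 5.50% in FoP. The shares sum to a whole, so they are not independent of the rise in Igfbp5 that chose the family.

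**Figure D4:**
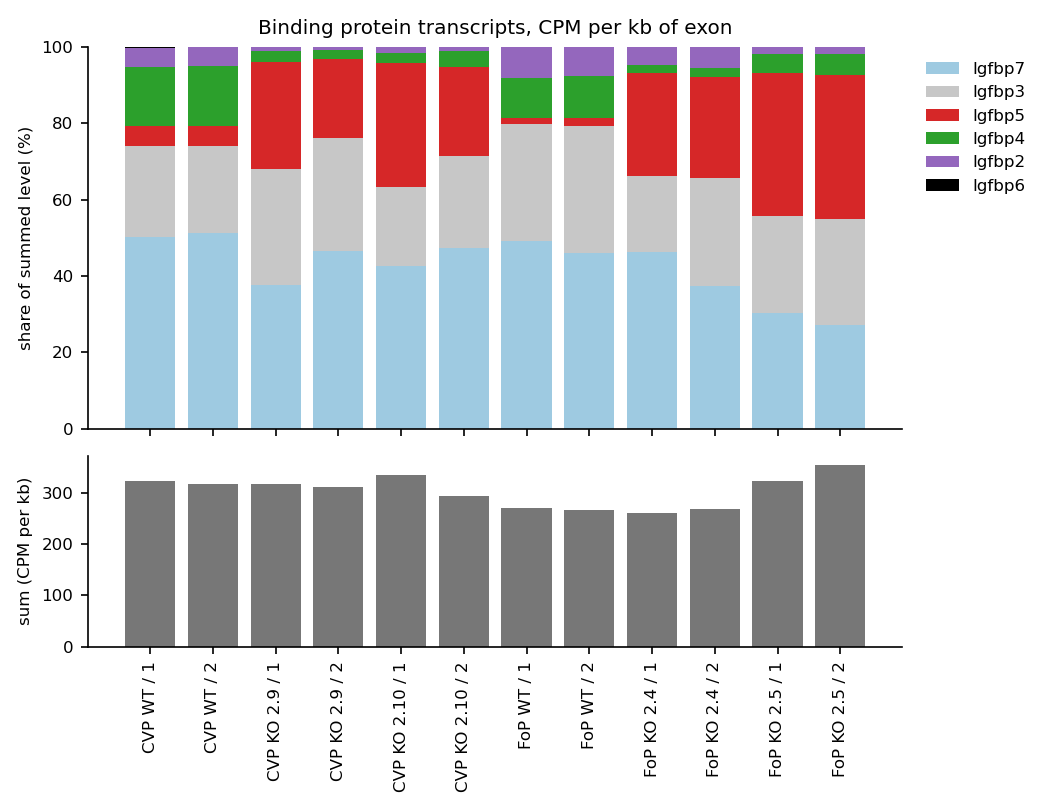
Upper panel: share (%) of each binding protein in the summed CPM per kb of the 6 genes, 1 bar per library. Lower panel: that sum in CPM per kb. The Igfbp5 share is 1.70 to 5.30% in the 4 wild type libraries and 20.6 to 37.7% in the 8 knock-out libraries. The sums range from 259 to 354, and FoP clone 2.5 (323 and 354) lies above FoP wild type (265 and 269).

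Igf1r, the signalling receptor, was lower in CVP knock-out and not in FoP. It was at 183 and 179 CPM in CVP wild type, against 127 and 151 CPM in clone 2.9 and 128 and 144 CPM in clone 2.10. The 4 CVP knock-out libraries were all below wild type, and Igf1r fell by 0.40 ± 0.07 on the log2 scale (SE, adjusted p = 0.000428, edgeR). In FoP the wild type libraries were at 157 and 160 CPM and the knock-out libraries at 156 to 174 CPM, which overlapped, with a difference of 0.09 ± 0.07 (adjusted p = 0.397). The difference between the lines itself passed the test, at 0.49 ± 0.10 (SE, adjusted p = 0.00712). Of the 8 members tested for this difference it was the 1 called, higher in FoP, where 15.8% of all tested genes were (7.28% higher and 8.49% lower). The call for this difference was lost when duplicates were summed per culture (adjusted p = 0.184, the highest over the alternatives run).

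Igf2r, which clears Igf2, was at 343 and 338 CPM in CVP wild type and 259 to 296 CPM in CVP knock-out, without overlap, and fell by 0.33 ± 0.08 (SE, adjusted p = 0.0048, edgeR), a call lost with duplicates summed per culture (0.114). In FoP the wild type libraries were at 289 and 283 CPM and the knock-out libraries at 255 to 310 CPM, which overlapped (-0.01 ± 0.08, adjusted p = 0.969). The difference between the lines for Igf2r was 0.32 ± 0.11 and did not pass (adjusted p = 0.0771). It passed with DESeq2 (0.036), without clone 2.9 duplicate 2 (0.0441) and without clone 2.5 duplicate 2 (0.0341). Without clone 2.5 the number of members called for the difference was 4. Airn, a noncoding gene on the opposite strand at Igf2r, held 291 to 671 counts.

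Irs1 was called lower in FoP only, and the difference between lines did not pass the test. It was at 23.6 and 23.1 CPM in FoP wild type, 15.6 and 14.7 CPM in clone 2.4 and 20.5 and 17.1 CPM in clone 2.5, all below wild type, and fell by 0.46 ± 0.12 (SE, adjusted p = 0.0095, edgeR). The FoP call was lost without wild type duplicate 1 (log2 fold change -0.44) or duplicate 2 (-0.48), and with duplicates summed per culture (-0.46). Leaving out clone 2.4 also lost it (-0.30, adjusted p = 0.0564, edgeR). In CVP, wild type was at 22.1 and 21.7 CPM and knock-out at 18.8 to 23.0 CPM, which overlapped (-0.07 ± 0.12, adjusted p = 0.678). The difference between the lines was -0.39 ± 0.16 (adjusted p = 0.128), and passed without clone 2.5 duplicate 1 (0.0263). Irs2 was at 36.5 and 39.9 CPM in CVP wild type, 23.2 to 38.5 CPM in CVP knock-out, 34.9 and 36.3 CPM in FoP wild type and 30.4 to 39.0 CPM in FoP knock-out, and was not called in either line (adjusted p = 0.354 and 0.919).

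Between the wild type lines, 0 of the 8 tested members were called with edgeR, where 6.68% of tested genes were (3.77% higher and 2.91% lower in FoP), although 3 had an unadjusted p below 0.05 and DESeq2 called 1. The FoP minus CVP difference was -0.80 ± 0.58 for Igfbp4 (SE, adjusted p = 0.475, edgeR) and -0.34 ± 0.11 for Igfbp7 (adjusted p = 0.0757), the gene that DESeq2 called (0.0238). Igfbp7 also passed without clone 2.9 duplicate 1 (0.0434) or clone 2.4 duplicate 1 (0.0298). Each group has 2 libraries in this comparison.

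The clones of a line were compared in a fit of the 6 cultures. Between CVP clones 2.10 and 2.9, 0 of 8 members were called with edgeR, where 5.42% of tested genes were (2.89% higher and 2.54% lower); 1 had an unadjusted p below 0.05 and DESeq2 called 0. With single libraries left out, Igfbp2 passed without clone 2.10 duplicate 2 (adjusted p = 0.0108), Igfbp4 without clone 2.10 duplicate 1 (0.0215), Irs2 without clone 2.9 duplicate 2 (0.00109) and Igfbp3 without either duplicate of FoP clone 2.4 (0.00518 and 0.00522). The Igfbp5 libraries of the CVP clones overlapped. Between FoP clones 2.5 and 2.4, 1 of 8 was called higher and 2 lower, where 7.26% of tested genes were called (3.53% higher and 3.72% lower). Igfbp4 was higher in clone 2.5 by 1.64 ± 0.16 (SE, adjusted p = 0.000531), and this call held without each single library. Igfbp2 was lower in clone 2.5 by -1.13 ± 0.21 (adjusted p = 0.0129), so the pair moved in opposite directions between these clones. The Igfbp2 call was lost without clone 2.4 duplicate 2 (adjusted p = 0.0707), clone 2.5 duplicate 1 (0.0935) or clone 2.5 duplicate 2 (0.0806).

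The remaining call between the FoP clones was Igf2r, lower in clone 2.5 by -0.25 ± 0.06 (SE, adjusted p = 0.0209, edgeR). It was lost without any 1 of the 4 FoP knock-out libraries, with adjusted p-values of 0.0744 to 0.173. Igfbp5, at 424 ± 5.83 CPM in clone 2.4 and 765 ± 51.4 CPM in clone 2.5 (SD, n = 2 each), did not overlap between the clones. Its level there is given as a description, like its other levels. Igfbp3, 0.51 ± 0.16 higher in clone 2.5, did not pass the test (adjusted p = 0.118). Without clone 2.4 duplicate 2, the higher library of that clone, the difference was 0.81 (adjusted p = 0.000404), and DESeq2 also called it (0.0484). Irs1, 0.32 ± 0.09 higher in clone 2.5 (adjusted p = 0.0571), passed with DESeq2 (0.0333) and without either duplicate of clone 2.10 or clone 2.5 duplicate 2. Irs2, at -0.32 ± 0.16 (adjusted p = 0.302), passed without either duplicate of clone 2.9 (0.0165 and 0.0173).

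Other genes that carry or release the ligands were read from a list of 11, of which 8 were tested. In each line 2 were called higher and 1 lower in knock-out, beside 46.4% of all tested genes called in CVP and 28.8% in FoP. Igfals, which stabilises the ligand complex in blood, rose by 1.04 ± 0.37 in CVP (SE, adjusted p = 0.0337) and by 1.49 ± 0.38 in FoP (adjusted p = 0.0113), from 1.77 to 3.63 CPM and from 0.988 to 2.78 CPM as means. Ctsd, a lysosomal protease that can cleave binding proteins, rose by 0.40 ± 0.11 in CVP (adjusted p = 0.0109) and by 0.56 ± 0.11 in FoP (adjusted p = 0.00264). Htra1, a secreted protease, fell by 0.24 ± 0.08 in CVP (adjusted p = 0.0239), and Adamts1 fell by 1.10 ± 0.28 in FoP (adjusted p = 0.0168). Igfbp1 had at most 1 count, Pappa2 at most 2 and Igfbpl1 at most 6 in a library. Without CVP wild type duplicate 1, 3 of these calls were lost, those of Igfals (adjusted p = 0.246), Htra1 (0.114) and Ctsd (0.0553) in CVP, and each was also lost without CVP wild type duplicate 2. Without either FoP wild type duplicate, those of Igfals and Adamts1 in FoP were lost. In CVP, Igfals and Htra1 were also lost without either duplicate of clone 2.10, and without that clone the Igfals change was 0.33 (adjusted p = 0.349). With duplicates summed per culture all 6 calls were lost.

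Between FoP clones, Stc2, a stanniocalcin that inhibits Pappa, was lower in clone 2.5, at 20.3 ± 1.29 against 45.1 ± 0.641 CPM (SD, n = 2 each; log2 difference -1.15 ± 0.12, SE, adjusted p = 5.91e-05, edgeR). Its relative Stc1 was higher in clone 2.5 by 3.19 ± 0.57 (adjusted p = 0.00328), at 0.438 against 0.0462 CPM. It lost its call without clone 2.4 duplicate 1 (log2 difference 2.78). The clone 2.4 level is near that of 3 counts in its libraries, 0.0457 and 0.0463 CPM of the unscaled total, so the size of this difference is uncertain. Adamts1, higher in clone 2.5 by 0.83 (adjusted p = 0.0478), lost its call without any 1 of 9 libraries. Between CVP clones, Igfals was higher in 2.10 by 1.19 ± 0.23 (adjusted p = 0.00523) and Ctsd by 0.33 ± 0.08 (adjusted p = 0.0198). Without clone 2.9 duplicate 2 both calls were lost (adjusted p = 0.0633 and 0.155), and Ctsd was also lost without clone 2.10 duplicate 1.

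Of 15 further receptors, adaptors and brakes, 12 were tested. In CVP 3 were called higher and 5 lower, and in FoP 0 higher and 2 lower, beside 46.4% and 28.8% of all tested genes called. Insr, the insulin receptor, fell by 0.45 ± 0.08 in CVP (SE, adjusted p = 0.00041, edgeR), from 111 to 81.3 CPM as means, a call lost with duplicates summed per culture (0.059). Sh2b1, an adaptor that enhances receptor signalling, rose by 0.44 ± 0.05 in CVP (adjusted p = 3.26e-05). Grb10, a receptor inhibitor, had 0 and 9 counts in CVP wild type and 20 to 66 in CVP knock-out. It was among the 3 called higher, but its high group is also what let it pass the filter, and the call was lost without CVP wild type duplicate 1 (0.162) or clone 2.10 duplicate 1. Sos1, the exchange factor that activates Ras, was called lower in both lines, and the difference between the lines was not called (adjusted p = 0.349, edgeR). Its log2 fold change was -0.22 ± 0.04 in CVP (adjusted p = 0.000691). In FoP it fell by 0.31 ± 0.04 (adjusted p = 0.000157), a call lost with duplicates summed per culture (log2 fold change -0.32). Grb14, another receptor inhibitor, fell by 1.00 ± 0.30 (adjusted p = 0.0253), and lost its call without either FoP wild type duplicate or clone 2.4 duplicate 1, with adjusted p-values up to 0.18. Insrr, Irs3 and Irs4 held at most 8 counts in a library.

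The difference between the lines was called for 3 of these 12 genes, beside 15.8% of all tested genes, and each call was lost with duplicates summed per culture. The phosphatase Ptpn1 (0.44 ± 0.12, SE, adjusted p = 0.0238, edgeR) lost its call without any 1 of the 4 wild type libraries. Sh2b1 (-0.31 ± 0.07, adjusted p = 0.0138) lost its call without either CVP wild type duplicate or FoP wild type duplicate 1, with adjusted p-values up to 0.0705. Ptpn11 (-0.20 ± 0.06, adjusted p = 0.0493) lost its call without any 1 of 10 libraries. Between clones, Socs2, a suppressor of cytokine signalling, was lower in 2.10 than in 2.9 by -0.28 ± 0.06 (adjusted p = 0.0089), a call lost without clone 2.9 duplicate 1 (0.0556). Insr was lower in 2.5 than in 2.4 by -0.20 ± 0.05 (adjusted p = 0.0317), a call lost without any 1 of the FoP knock-out libraries.

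All 21 genes listed for phosphoinositide 3-kinase, Akt and mTOR were tested, with 5 called higher and 9 lower in CVP and 3 higher and 7 lower in FoP, beside 46.4% and 28.8% of all tested genes called. Pik3r1, the main regulatory subunit of the kinase, was at 258 and 287 CPM in CVP wild type and 440 to 477 CPM in CVP knock-out, and at 235 and 251 CPM in FoP wild type and 383 to 405 CPM in FoP knock-out. Each line's groups were apart, and Pik3r1 rose by 0.75 ± 0.06 in CVP (SE, adjusted p = 1.55e-06) and 0.70 ± 0.06 in FoP (adjusted p = 6.39e-06, edgeR). Eif4ebp1, a repressor of translation that mTOR inactivates, was at 86.4 and 75.1 CPM in CVP wild type against 33.5 to 47.0 CPM in its knock-out, and at 84.9 and 86.3 against 49.6 to 57.6 CPM in FoP. It was lower in all 8 knock-out libraries, falling by 0.94 ± 0.11 in CVP (adjusted p = 4.42e-05) and by 0.67 ± 0.11 in FoP (adjusted p = 0.00108). These 4 calls held in every alternative run, duplicates summed per culture included.

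Pik3r3, another regulatory subunit, rose in CVP by 0.85 ± 0.21 (SE, adjusted p = 0.00738, edgeR), a call lost without CVP wild type duplicate 1 (0.0724). Rps6kb1, the S6 kinase, differed between the lines in its response by -0.44 ± 0.06 (adjusted p = 0.00159), with means of 50.3 and 69.4 CPM in CVP wild type and knock-out and of 60.5 and 61.5 CPM in FoP, a call lost with duplicates summed per culture (0.186). Between the wild type lines Rps6kb1 was called higher in FoP (0.27 ± 0.05, adjusted p = 0.0126), a call lost without any 1 of the 4 wild type libraries.

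Of 14 FoxO factors and genes they are known to induce, all tested, 0 were called higher and 7 lower in CVP, and 2 higher and 3 lower in FoP, beside 46.4% and 28.8% of all tested genes called. Bcl6, a transcriptional repressor, was at 257 and 233 CPM in CVP wild type and 113 to 140 CPM in CVP knock-out, and at 184 and 181 against 165 to 179 CPM in FoP. It fell by 1.00 ± 0.08 in CVP (SE, adjusted p = 1.55e-06), and the lines differed by 0.91 ± 0.11 (adjusted p = 0.000726, edgeR). Txnip, an arrestin that lowers glucose uptake, fell by 1.47 ± 0.35 in CVP (adjusted p = 0.00723), and Pik3ip1, an inhibitor of the kinase, by 0.81 ± 0.21 (adjusted p = 0.0105). The Pik3ip1 call was lost without CVP wild type duplicate 1 (0.101). Foxo1 itself rose in FoP by 0.47 ± 0.10 (adjusted p = 0.00363), a call lost without FoP wild type duplicate 1 (log2 fold change 0.41). In CVP it was called lower (-0.25 ± 0.10, adjusted p = 0.0448, edgeR), and the lines differed by 0.72 ± 0.14 (adjusted p = 0.00541). With duplicates summed per culture the calls of Txnip in CVP (0.0718), Foxo1 in FoP (0.0904) and both differences between lines (0.165 for Bcl6, 0.184 for Foxo1) were lost.

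Foxo6 fell in FoP by 0.91 ± 0.16 (SE, adjusted p = 0.0013, edgeR), and differed between lines by -0.88 ± 0.24 (adjusted p = 0.0267), the latter call being lost without any 1 of the wild type libraries. Sesn3, a stress-induced inhibitor of mTOR signalling, rose in FoP by 0.55 ± 0.15 (adjusted p = 0.0191), a call lost without either FoP wild type duplicate. Both FoP calls were lost with duplicates summed per culture (0.107 for Foxo6, 0.2 for Sesn3). Bcl6 was also called lower in FoP than in CVP wild type (-0.42 ± 0.09, adjusted p = 0.0186), a call lost without any 1 of the wild type libraries.

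The genes whose levels followed Igfbp5 most closely over the 12 libraries were found by Pearson correlation of log2 CPM among 10538 genes, as a description. The libraries come from 6 cultures and share genotype and line, so the points are not independent. Atp6ap1, an accessory subunit of the vacuolar proton pump, came first (r = 0.988), then Bcap31, a chaperone of the endoplasmic reticulum (0.984), Marchf3, a ubiquitin ligase (0.982), Klf13, a zinc-finger transcription factor (0.978) and Plbd2, a lysosomal protein (0.978). Their ranges of level were narrower than that of Igfbp5. Marchf3 averaged 14.1 ± 0.977 CPM in CVP wild type (SD, n = 2) and 23.4 ± 1.14 CPM in knock-out (SD, n = 4), and 11.4 ± 0.771 against 23.8 ± 3.02 CPM in FoP. Atp6ap1 averaged 231 and 261 CPM in CVP and 207 and 261 CPM in FoP, wild type and knock-out. As for Igfbp5, FoP wild type had the lowest mean of each of these 5 genes. Nothing is read from this, since they were picked for their correlation with Igfbp5 in the same libraries.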

How the data were processed

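Gene expression was measured by RNA sequencing of poly(A) RNA in 12 libraries, prepared with a stranded TruSeq kit per the labels' protocols. The deposited table holds raw counts per gene and library. STAR, featureCounts and hg38 are named in the submitters' processing notes without tool versions, yet the deposited symbols are mouse symbols, and 96.1% match exactly 1 gene of GENCODE M21. Whether counting used strand is not stated. Counts of 2 (20289 values) and 4 (10030) were over-represented against 1 (20007) and 3 (6626), which was tried as an alternative with halved counts.

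The members and lists were chosen with earlier results of these data known. The genes named are all 10 members, the ligands and binding proteins, up to 3 called genes per pathway list and comparison with the largest fold change (some that the rule names are not reported here), and the 5 genes most like Igfbp5 (mean log2 CPM of at least 2, prior count 2). Igfbp5, whose level chose the family, and Igfbp6, which passed the filter only through CVP wild type, were left out of the tests and member counts after their values were seen. Libraries were grouped into 4 arms by line and genotype. Genes were filtered with filterByExpr (minimum count 10), given TMM scaling and tested by quasi-likelihood in edgeR 4.0.16 (R 4.3.3), with Benjamini-Hochberg adjustment over 17076 genes and a threshold of 0.05. Standard errors are approximate: the log2 fold change divided by the square root of F. Clones were compared in a fit of 6 cultures. Duplicates of a culture differed beyond counting noise (chi-square per degree of freedom 7.68 to 37.4), and each was kept as a sample. This spread does not make them independent samples of a genotype, and their consensus correlation with voom was 0.255. With duplicates summed per culture, calls fell from 7929 to 3420 in CVP and from 4921 to 372 in FoP. Those for the difference between lines fell from 2692 to 0. The main fit counts duplicates as independent, so its adjusted p-values may be too small. The fit was also run on simulated counts in which every library was drawn independently, so that run could not check the effect of duplicates sharing a culture. Per-kb levels divide CPM by the union of exons in GENCODE M21. Promoter windows are RefSeq's, 250 bases before the start.

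The settings varied were the scaling (DESeq2 size factors), the filter (none, or 1 CPM in at least 4 libraries) and the test (Wald test of DESeq2 1.42.0). Also tried were halved counts, the replicate number as a block, limma 3.58.1 voom with culture as block, duplicates summed per culture, 1 line per fit, and each library and each clone left out. Totals of 59.3 to 73.6 M counts make 1 CPM 59.3 to 73.6 counts.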

Additional observations from a re-analysis of the deposited data

Results flagged for a closer look

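The response of Igf1r to the knock-out label differed between the lines in the test of the difference itself: the FoP minus CVP difference of log2 fold changes was 0.49 ± 0.10 (SE, adjusted p = 0.00712, edgeR). All 4 CVP knock-out libraries were below both wild type libraries, while the FoP groups overlapped. The call was lost with duplicates summed per culture (adjusted p = 0.184).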

How the results depend on the processing

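No called value changed sign under the alternatives run. With duplicates summed per culture, which leaves 2 residual degrees of freedom, members called fell to 1 in CVP and to 0 in FoP and in the difference between lines; over all genes, calls were 3420 in CVP, 372 in FoP (111 higher and 261 lower, against 2301 and 2620) and 0 for the difference and for the wild type comparison. DESeq2 called 4 members in FoP, 2 for the difference, 1 between wild type lines and 5 between FoP clones, and 2030 genes between wild type lines. Without a filter, members called were 1 in FoP, 2 for the difference, 1 between CVP clones and 5 between FoP clones, with 1494 and 1913 genes called between the clones of CVP and FoP. Voom called 1422 genes for the difference and 522 between wild type lines. Members called for the difference were 4 without clone 2.5 and 2 without clone 2.4; between wild type lines they were 2 without clone 2.5, 3 without clone 2.4 and 1 without clone 2.9. A fit of 1 line cannot give the difference or the wild type comparison.

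With each library left out in turn, members called ranged from 4 to 5 in CVP, 0 to 2 in FoP, 1 to 2 for the difference, 0 to 1 between wild type lines, 0 to 1 between CVP clones and 1 to 4 between FoP clones. All genes called ranged from 5238 to 7975, 2668 to 5079, 1103 to 2903, 101 to 1235, 549 to 1026 and 509 to 1627 in the same order. An arm left with 1 library was assumed to vary like the others.

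The replicate numbers do not pair the samples: deviations of same-numbered duplicates correlated at -0.06 to 0.11 over 15 pairs of cultures, 1 of them over 0.1. With the replicate block, 7633 genes were called in CVP and 4627 in FoP, with 4 and 2 members; Igfbp7 in CVP had an adjusted p of 0.0515. Depth limits Igfbp6, Igf1, Igf2, Grb10 and Stc1, whose counts are low.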
